A study of Mus musculus with 24 samples.

Results

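The Toll-like receptor genes of mouse embryonic fibroblasts (MEFs) were described in a series of H3K9 methyltransferase (KMT) mutants. The set held 9 genes chosen by symbol, namely the receptors Tlr1, Tlr2, Tlr3, Tlr4, Tlr5, Tlr6 and Tlr9 and the adaptors Myd88 and Ticam1, out of 47937 genes in the table of RNA-seq counts. Of the 9 genes, 8 passed the filter on low counts and were tested together with the 18565 genes that passed, and Tlr9 did not.

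The study removed the H3K9 KMT enzymes step by step and sequenced 24 libraries, 3 for each of 8 conditions. WT was the Eset1-conditional line (clone Eset25) without 4-hydroxytamoxifen (4-OHT), and E1 was the same line after 4-OHT at 1 µM, which activates a Cre recombinase fused to the oestrogen receptor (CreERT2) and deletes a pair of internal exons of Eset1 (Setdb1). In the first series, E1 S1S2 (clone B1) also carried mutations of Suv39h1 and Suv39h2, and 6KO1 (clone B1A6, derived from B1) added mutations of Eset2 (Setdb2), G9a (Ehmt2) and Glp (Ehmt1). In the second series, E2 (clone A4) carried the Eset2 mutation without 4-OHT, E1E2 was clone A4 after 4-OHT, E1E2 G9Gl (clone E2) added mutations of G9a and Glp, and 6KO2 (clone E2F4, derived from that clone) added Suv39h1 and Suv39h2. All conditions but WT and E2 received 4-OHT. All 8 shared the conditional Eset1 allele, the mutations other than Eset1 were CRISPR/Cas9 frameshifts, and the mutant clones received the CreERT2 construct again and were kept under puromycin. Each mutant line is 1 clone, so a difference between lines cannot be told apart from a difference between clones, and although the study's methods describe the 3 libraries of a line as biological replicates, the p-values measure the spread within a line only.

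Toll-like receptors are membrane proteins that detect molecules of microbes or damaged cells and pass the signal on through adaptors with a shared TIR domain. Tlr1, Tlr2, Tlr4, Tlr5 and Tlr6 act mainly at the cell surface, where Tlr2 pairs with Tlr1 or Tlr6 to bind lipoproteins, Tlr4 with its partner MD-2 binds lipopolysaccharide and Tlr5 binds flagellin, while Tlr3 and Tlr9 sit in endosomes and bind double-stranded RNA and unmethylated CpG DNA. Myd88 serves most of these receptors and leads to NF-κB, Ticam1 (TRIF) serves Tlr3 and Tlr4 and leads to interferon regulatory factors as well, and fibroblasts are among the cells outside the immune system that carry such receptors.

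The genes lie on 7 chromosomes (GRCm38, GENCODE annotation). Tlr1 (chr5:64924679-64933563, minus strand) and Tlr6 (chr5:64952031-64960097, minus strand) lie 18468 bases apart. Tlr2 lies at chr3:83836272-83841767 on the minus strand, Tlr3 at chr8:45395665-45411080 on the minus strand, Tlr4 at chr4:66827584-66930284 on the plus strand and Tlr5 at chr1:182954788-182976044 on the plus strand. Tlr9 lies at chr9:106222598-106226883 on the plus strand, Myd88 at chr9:119335934-119341411 on the minus strand and Ticam1 at chr17:56269319-56276786 on the minus strand.

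The promoters of 3 receptors are shown because their RNA followed different courses over the mutants, with Tlr2 on a course of its own and Tlr3 and Tlr5 furthest above WT. Each stretch runs 5′ to 3′ on the strand of the gene, from 250 bases before the RefSeq start (build GRCm38.p6) to 50 bases from it, and capitals mark matches to the kappa-B motif, the consensus of NF-κB, on either strand.
Tlr2, chr3:83841559-83841858, minus strand: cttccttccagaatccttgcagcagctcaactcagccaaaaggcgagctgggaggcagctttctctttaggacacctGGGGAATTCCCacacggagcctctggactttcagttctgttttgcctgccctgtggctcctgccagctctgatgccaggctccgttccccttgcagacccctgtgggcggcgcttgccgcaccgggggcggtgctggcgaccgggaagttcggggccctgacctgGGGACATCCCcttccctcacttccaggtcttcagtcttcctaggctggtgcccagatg
Tlr3, chr8:45410331-45410630, minus strand: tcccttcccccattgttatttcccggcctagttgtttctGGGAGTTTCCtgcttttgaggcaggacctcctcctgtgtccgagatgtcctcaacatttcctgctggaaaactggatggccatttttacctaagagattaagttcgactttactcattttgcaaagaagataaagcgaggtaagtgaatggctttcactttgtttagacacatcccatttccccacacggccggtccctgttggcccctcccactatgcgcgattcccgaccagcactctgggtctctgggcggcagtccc
Tlr5, chr1:182954538-182954837, plus strand: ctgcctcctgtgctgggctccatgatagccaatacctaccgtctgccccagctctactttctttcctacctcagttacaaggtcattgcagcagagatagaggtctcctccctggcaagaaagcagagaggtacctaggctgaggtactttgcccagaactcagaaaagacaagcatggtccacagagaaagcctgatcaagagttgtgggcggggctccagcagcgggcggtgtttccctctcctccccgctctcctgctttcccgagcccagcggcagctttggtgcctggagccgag

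The Tlr2 stretch held 3 kappa-B matches, of which 2 overlapped at positions -173 to -163, counted with the start as 0, and the other lay at -8 to 1. The Tlr3 stretch held 1 match at -211 to -202, and the Tlr5 stretch held none. Of 32851 RefSeq promoter windows of the same length, 8.46% held a kappa-B match. The interferon-stimulated response element, searched as GAAANNGAAA on both strands, was found in 3.44% of the windows. None of the 3 stretches held it, whereas 1 of the windows of Tlr6 held 2 overlapping matches and that of Myd88 held 1. The Tlr2, Tlr3 and Tlr5 stretches held 11, 10 and 8 CpG dinucleotides. These matches describe letters in the window and no binding was measured.

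Sequencing depth was similar over the libraries, with 19541909 to 31489070 counts in genes. Levels are given as normalized counts, the count scaled by the TMM library size to the mean effective library of 25325051 counts. A gene was called higher or lower when the fold change was at least 2 and the adjusted p at most 0.01 (edgeR quasi-likelihood test, Benjamini-Hochberg over all genes tested). WT replicate 2 stood apart from WT replicates 1 and 3, with a chi-square per gene of 64.6 and 54, where no other pair of replicates exceeded 23.8, and member calls that changed without it are given beside them. The gene counts take in all exons, so they check the labels only in part. Against WT, Setdb1 stood at log2 -0.57 in E1 and -0.31 in E2, which had no 4-OHT, and at 0.01 between E1E2 and E2 (adjusted p = 0.992). Setdb2 stood at -1.36 to -1.55 in the lines of the second series and at -0.9 in 6KO1, but also at -0.61 in E1 S1S2, where it was not targeted. Ehmt1 stood at -0.95 to -1.4 and Ehmt2 at -0.56 to -1.69 in the 3 lines that carry their mutations, against -0.13 to -0.04 and 0.29 to 0.65 in the other 4 mutants. Suv39h1 stood at -0.47 in E1E2 G9Gl, where it was not targeted, and at -1.14, -1.73 and -0.81 in E1 S1S2, 6KO1 and 6KO2. Suv39h2 stood at 0.76, 0.14 and -0.96 there and was lower in E1E2 G9Gl (-1.47), where it was not targeted, so its counts do not follow the labels. Fibroblast markers such as Vim (34179 to 64527 normalized counts) and Col1a1 (10745 to 52376) were abundant in every library. Other such markers differed between the mutants, and not in the same way. Thy1 fell from 199 ± 10.7 (SD, n = 3) in WT to 0.293 ± 0.508 in 6KO1 and 1.76 ± 2.14 in 6KO2. It was 0.861 ± 0.902 in E1 S1S2 and 412 ± 19.4 in E1E2 G9Gl. Pdgfra stood at 129 ± 18.8 in WT and fell to 13.7 ± 2.01 with E1E2 G9Gl, where Thy1 was high. Its level was 3.12 ± 2.38 for 6KO1 but 76.5 ± 4.56 for 6KO2. Col1a2 had its lowest mean in E1 S1S2, at 8339 ± 506 against 46818 ± 6616 in WT.

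The adaptors and 2 of the receptors were the best expressed of the set in WT. On the scale of RPKM, computed here from the counts and the exon length so that genes can be compared, Myd88 stood at 7.76 ± 0.307 (SD, n = 3), Tlr4 at 4.88 ± 1.14, Tlr2 at 4.24 ± 0.422 and Ticam1 at 2.55 ± 0.192. On the same scale Tlr3 stood at 0.581 ± 0.0556, Tlr5 at 0.185 ± 0.0472, Tlr6 at 0.111 ± 0.0191 and Tlr1 at 0.0193 ± 0.0059, and no library of WT held a Tlr9 count. In 6KO1 the level of Tlr2 was 15.4 ± 0.703 RPKM, above that of Myd88 at 9.59 ± 0.41.

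**Figure D1:**
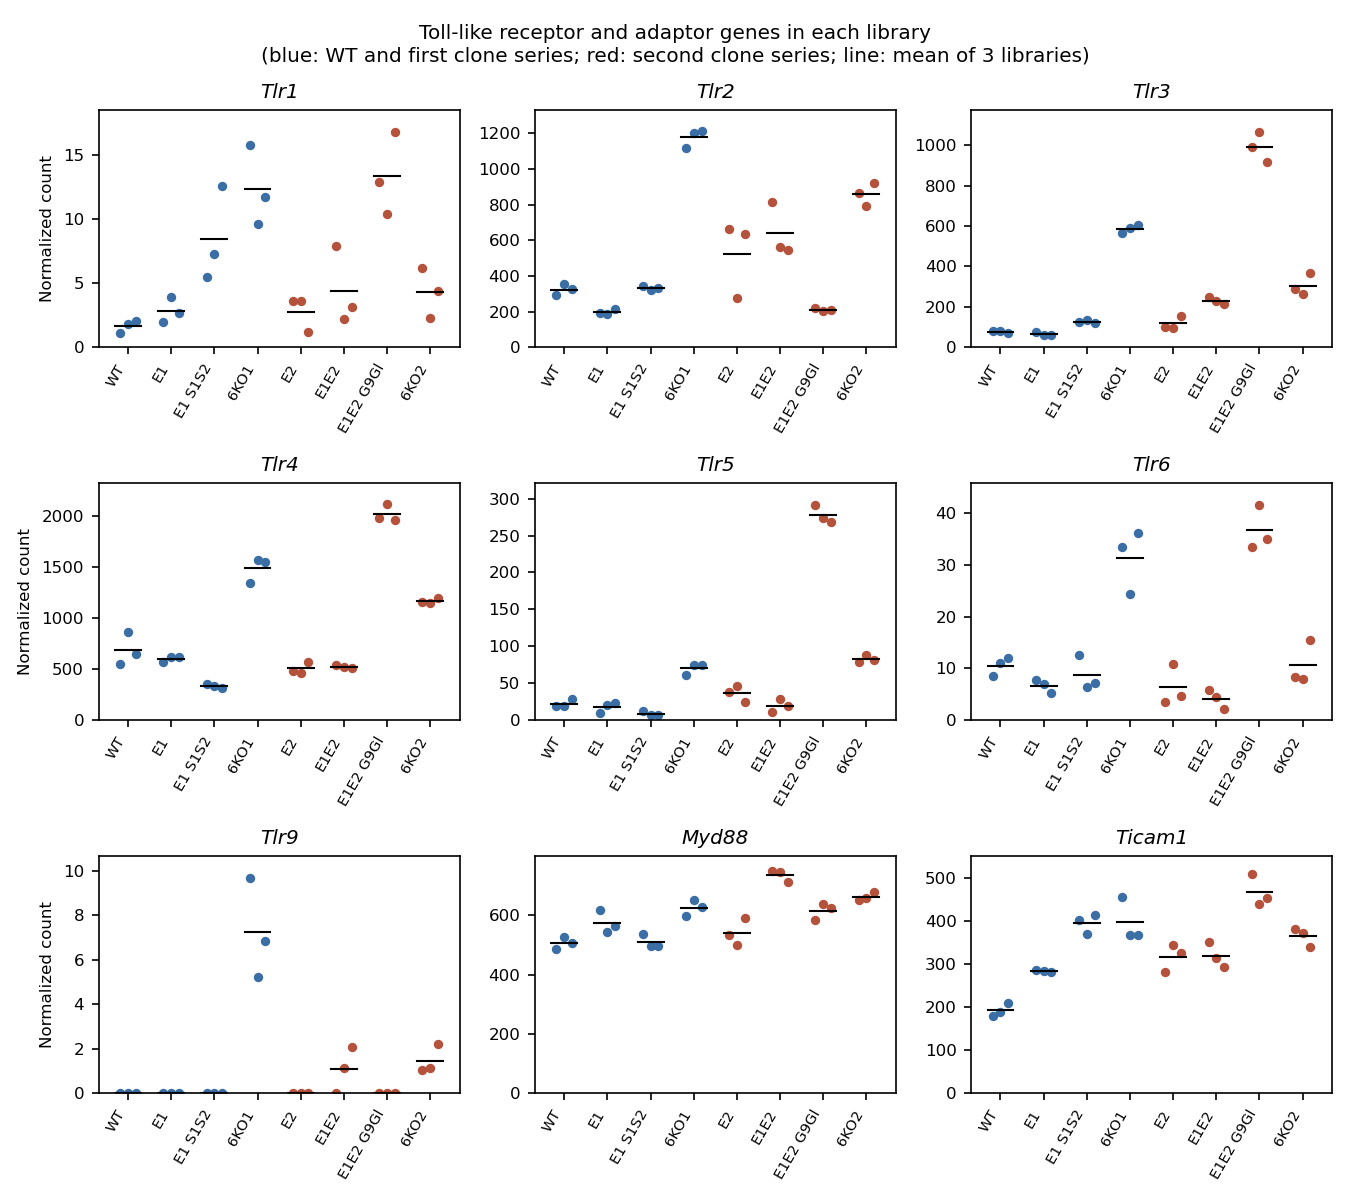
Normalized counts (y axis, linear, from 0) of the 9 genes in each of the 24 libraries, by condition (x axis). Points are libraries, lines are means of 3 libraries, blue marks WT and the first clone series and red the second. Tlr3, Tlr4 and Tlr5 were highest in E1E2 G9Gl, where the 3 Tlr2 libraries (204 to 222) lay below every WT library (291 to 355).

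Tlr2, the lipoprotein receptor that pairs with Tlr1 or Tlr6, had its highest means in the cells that lack all 6 enzymes, although the 6KO2 libraries overlapped those of E1E2. The 3 WT libraries held 291, 355 and 325 normalized counts, those of 6KO1 1116, 1201 and 1215, and those of 6KO2 868, 792 and 923. Every library of the 2 six-gene mutants lay above every library of WT. Tlr2 rose 3.63-fold in 6KO1 (log2 1.86, SE 0.2, adjusted p = 1.4e-08) and 2.66-fold in 6KO2 (log2 1.41, SE 0.2, adjusted p = 1.8e-06). The E1 S1S2 libraries, at 343, 322 and 330, overlapped those of WT, and the E1 libraries, at 194, 187 and 213, lay below them without reaching the call (log2 -0.71, SE 0.21, adjusted p = 0.02). In the second series, E2 held 664, 277 and 635, E1E2 held 814, 561 and 545, and E1E2 G9Gl held 222, 204 and 209. E2 was split, with replicate 2 below the 3 WT libraries and the other two above them, and the log2 fold change of 0.68 missed the call (adjusted p = 0.0101) but reached it at 1.0 without E2 replicate 2. The E1E2 libraries all lay above WT, and the log2 fold change of 0.98 (adjusted p = 0.00033) was just under the fold required, which it passed without WT replicate 2 (1.06), E1E2 replicate 2 (1.07) or E1E2 replicate 3 (1.09). In E1E2 G9Gl the 3 libraries lay below those of WT and the difference was not called (log2 -0.62, SE 0.22, adjusted p = 0.016).

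Tlr1 and Tlr6, the partners of Tlr2, are neighbours on chromosome 5 and were expressed at few counts. Tlr1 had 1, 2 and 2 raw counts in WT and 2, 4 and 3 in E1, against 7, 8 and 14 in E1 S1S2, 18, 11 and 12 in 6KO1 and 12, 9 and 13 in E1E2 G9Gl. The libraries of the last 3 conditions all lay above those of WT and E1. Tlr1 rose 4.76-fold in E1 S1S2 (adjusted p = 0.00147), 7.05-fold in 6KO1 (adjusted p = 3.2e-05) and 7.55-fold in E1E2 G9Gl (adjusted p = 3.3e-05), with SEs of 0.51 to 0.55 on the log2 scale. With 1 or 2 counts in a WT library, Tlr1 passed the filter through the conditions where it is high, and in fits of the 6 libraries alone it did not pass for E1 S1S2 or E1E2 G9Gl, so those calls rest on the fit of all 24 libraries. Without E1 S1S2 replicate 3 the first of these was not called (log2 1.86, adjusted p = 0.014). E2 had 3, 4 and 1 counts, E1E2 8, 2 and 3 and 6KO2 6, 2 and 4, and none of these was called against WT. In total, 10.6% of the 75-base stretches of Tlr1 transcripts also occur in other genes, Tlr6 among them, and 9.25% of those of Tlr6 occur in Tlr1, so reads from these stretches could have been placed in either gene.

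Tlr6 was called in 6KO1 and E1E2 G9Gl but not in 6KO2. It held 8.52, 11 and 12 normalized counts in WT, 33.4, 24.4 and 36.2 in 6KO1 and 33.4, 41.6 and 35.0 in E1E2 G9Gl. Those 2 mutants overlapped each other and lay above WT in every library, a rise of 2.93-fold in 6KO1 (SE 0.29 on the log2 scale, adjusted p = 5.1e-05) and 3.45-fold in E1E2 G9Gl (SE 0.29, adjusted p = 1.1e-05). 6KO2 held 8.27, 8.0 and 15.5 and overlapped WT. The other 4 mutants held 2.07 to 12.5, the lowest being E1E2 at 5.91, 4.43 and 2.07 (log2 -1.32 against WT, SE 0.45, adjusted p = 0.0205).

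Tlr4, the lipopolysaccharide receptor, was lower than WT in E1 S1S2 and higher in 6KO1 and E1E2 G9Gl. WT held 551, 864 and 645 normalized counts, with replicate 2 the highest, and E1 held 565, 616 and 623. E1 S1S2 was lower at 355, 332 and 314, whereas 6KO1 was higher at 1342, 1571 and 1544. Against WT, Tlr4 fell 2.06-fold in E1 S1S2 (adjusted p = 5.6e-08) and rose 2.16-fold in 6KO1 (adjusted p = 2.7e-09), each with an SE of 0.11 on the log2 scale. Both were close to the fold required: the former was not called without WT replicate 2 (log2 -0.84) and the latter not without WT replicate 1 (log2 0.973). In the second series E2 held 483, 465 and 570 and E1E2 held 536, 517 and 509, E1E2 G9Gl held 1979, 2118 and 1958 and 6KO2 held 1154, 1151 and 1191. The E1E2 G9Gl libraries were the highest of all 24, a rise of 2.93-fold over WT (adjusted p = 9.3e-12). The 6KO2 libraries also lay above every WT library, but at log2 0.76 (SE 0.11, adjusted p = 1.9e-06) the difference was under the fold required.

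Tlr5, the flagellin receptor, ranged from 6.34 to 291 normalized counts over the 24 libraries. It held 19.2, 19.2 and 29.1 in WT, 9.77, 20.7 and 22.9 in E1, 12.5, 6.34 and 7.2 in E1 S1S2 and 61.5, 74.0 and 74.3 in 6KO1. The E1 S1S2 libraries lay below those of WT and the 6KO1 libraries above, with a fall of 2.52-fold (SE 0.36 on the log2 scale, adjusted p = 0.00334) and a rise of 3.1-fold (SE 0.26, adjusted p = 5.1e-06). The fall rested on few counts and was not called without WT replicate 3 (log2 -1.1, adjusted p = 0.0265), E1 S1S2 replicate 2 (log2 -1.15, adjusted p = 0.0199) or E1 S1S2 replicate 3 (log2 -1.21, adjusted p = 0.0174). In the second series the values were 38.1, 45.7 and 25 for E2, 10.8, 28.8 and 19.6 for E1E2, 291, 274 and 268 for E1E2 G9Gl, and 78.6, 88.0 and 81.7 for 6KO2. E1E2 G9Gl stood above all other libraries, 12.3-fold over WT (SE 0.23, adjusted p = 2.4e-12), and 6KO2 stood 3.67-fold over WT (SE 0.26, adjusted p = 1.1e-06). E2 and E1E2 overlapped WT.

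Tlr3, the endosomal receptor of double-stranded RNA, was called higher than WT in 4 mutants, more than any other gene of the set. It held 82.1, 79.4 and 68.2 normalized counts in WT and 77.2, 61.2 and 59.8 in E1, which overlapped. E1 S1S2 held 124, 132 and 118, and 6KO1 held 567, 588 and 602. All of these lay above WT, and Tlr3 rose 7.64-fold in 6KO1 (log2 2.93, SE 0.15, adjusted p = 2.1e-14), while the difference in E1 S1S2 was under the fold required (log2 0.7, SE 0.16, adjusted p = 0.0008). E2 held 102, 96.0 and 157, E1E2 248, 229 and 214, E1E2 G9Gl 989, 1066 and 917 and 6KO2 288, 263 and 366. Each of these conditions lay above WT in all 3 libraries. Tlr3 rose 3.01-fold in E1E2 (adjusted p = 1.6e-08), 12.9-fold in E1E2 G9Gl (adjusted p = 2.7e-16) and 3.98-fold in 6KO2 (adjusted p = 8.7e-11), with an SE of 0.15 on the log2 scale in each. In the order of the means, E1E2 G9Gl, 6KO1, 6KO2, E1E2 and the next condition, E1 S1S2, were apart from each other in all libraries, whereas E1 S1S2 overlapped E2, and WT overlapped E1. The exons of Tlr3 share 381 bases with the antisense gene Gm45542, and the setting for strand in the counting is not stated, so reads from this overlap cannot be told apart.

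Tlr9, the endosomal receptor of CpG DNA, was at the limit of detection. The 6KO1 libraries had 11, 6 and 7 raw counts, those of 6KO2 had 1, 1 and 2, those of E1E2 had 0, 1 and 2, and all libraries of the other 5 conditions had 0. The 24 counts of 6KO1 were 7.32-fold higher than the 3 counts over the group that a count of 0 in WT allows. This limit covers the counting error of WT only and takes the 6KO1 counts as exact. The gene did not pass the filter and is not among the 8 tested. With no filter, edgeR called it higher in 6KO1 than in WT (adjusted p = 2.35e-05) and than in E1 S1S2 (adjusted p = 1.27e-05), whereas DESeq2 did not (adjusted p = 0.017 and 0.0149). E1E2 G9Gl, the condition in which Tlr3, Tlr4 and Tlr5 were highest, was among the conditions with no Tlr9 count.

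The adaptors moved over a narrower range than the receptors. Myd88, the adaptor of most of the receptors, held 486, 526 and 507 normalized counts in WT and lay between 495 and 749 in the mutants. It was highest in E1E2 at 749, 747 and 711, where it stood 1.45-fold over WT (log2 0.54, SE 0.067, adjusted p = 7.1e-07), and it was not called in any of the 7 mutants. Some 5.68% of its 75-base stretches occur in Acaa1a, a gene on the opposite strand that shares 290 exon bases with it. Ticam1, the adaptor of Tlr3 and Tlr4, held 180, 190 and 209 in WT. All 21 mutant libraries lay above these values, at 281 to 509.

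Ticam1 was called in 3 of the 7 mutants. E1 held 287, 285 and 281, E1 S1S2 404, 371 and 415, 6KO1 457, 369 and 369, E2 281, 345 and 326, E1E2 353, 314 and 292, E1E2 G9Gl 509, 440 and 455 and 6KO2 383, 374 and 339. Only E1 and WT, the 2 lowest conditions, were neighbours in the order of means with libraries apart from each other, and all other neighbours overlapped. Ticam1 rose 2.05-fold in E1 S1S2 (adjusted p = 9.9e-09), 2.06-fold in 6KO1 (adjusted p = 3.1e-09) and 2.43-fold in E1E2 G9Gl (adjusted p = 1.2e-10). The first was not called without WT replicate 1 (log2 0.995), and the second not without WT replicate 1 (log2 0.998) or 6KO1 replicate 1 (log2 0.93). The 4 other mutants lay at log2 0.56 to 0.92 over WT with adjusted p values of 0.0003 or less, under the fold required.

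**Figure D2:**
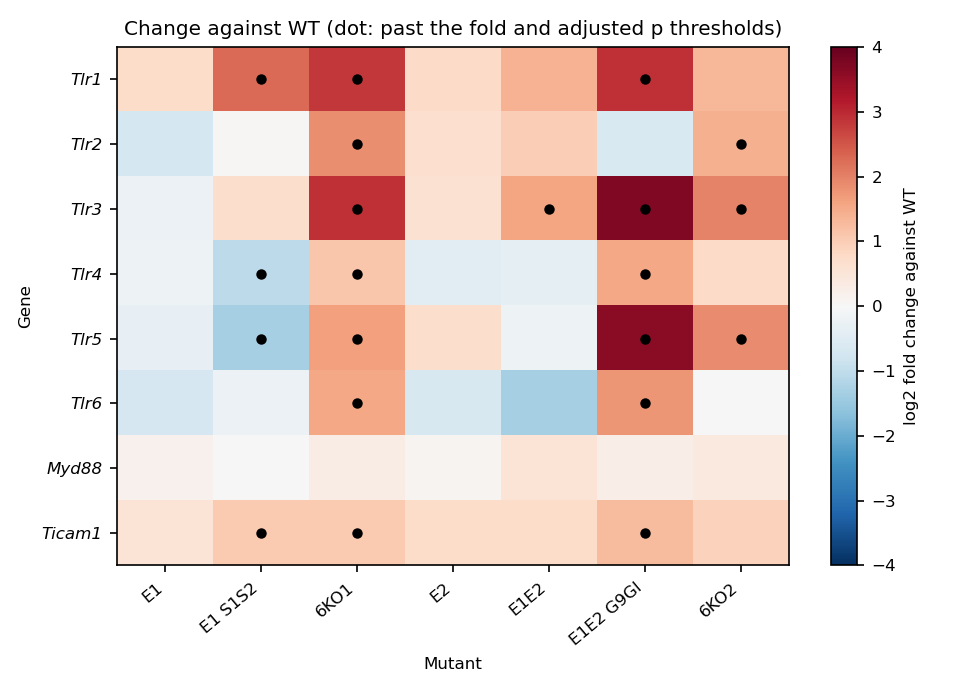
Log2 fold change against WT (colour, from -4 to 4) of the 8 tested genes (y axis) in the 7 mutants (x axis). Black dots mark changes past a fold of 2 and an adjusted p of 0.01. Dots mark 7 of 8 genes in 6KO1, 6 of 8 in E1E2 G9Gl and none in E1 or E2. Of all genes tested, those called higher were 20.6% for 6KO1 and 16.8% for E1E2 G9Gl. For the mutants without dots, 2.27% (E1) and 2.9% (E2) were higher and 1.99% and 3.21% lower. Tlr1, marked in 6KO1 and E1E2 G9Gl, passed the filter on low counts through the conditions where it is high.

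Counted by mutant, the set moved most in 6KO1 and E1E2 G9Gl. In 6KO1, 7 of the 8 tested members were higher, all but Myd88, against 20.6% of all genes tested, and 0 were lower against 10.2%. The median log2 fold change of the 8 was 1.59, beside 0.061 over all genes tested. In E1E2 G9Gl, 6 were higher, all but Tlr2 and Myd88, against 16.8% of all genes, and 0 were lower against 8.41%, with a median of 1.66 beside 0.009. The counts of higher members in 6KO1 and E1E2 G9Gl include Tlr1, which passed the filter through the conditions where it is high. With the 6 libraries alone, 7 were higher in 6KO1 and 5 in E1E2 G9Gl, where Tlr1 was not tested. In 6KO2, Tlr2, Tlr3 and Tlr5 were higher, against 15.3%, and 0 were lower against 5.39%, with a median of 1.13 beside 0.041. E1E2 had 1 higher member, Tlr3, against 5.51% of all genes, and 0 lower against 3.22%. Without WT replicate 2 the counts of higher members stayed at 7 (6KO1), 6 (E1E2 G9Gl) and 3 (6KO2), and E1E2 had 2, Tlr2 and Tlr3. Without WT replicate 1 the count in 6KO1 was 5, as Tlr4 and Ticam1 were not called, and without 6KO1 replicate 1 it was 6.

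E1 S1S2 had 2 higher members, Tlr1 and Ticam1, against 6.65% of all genes, and 2 lower members, Tlr4 and Tlr5, against 5.11%. Tlr1 passed the filter through the conditions where it is high, and with the 6 libraries alone E1 S1S2 had 1 higher member and 1 lower. Its counts fell to 1 higher without WT replicate 1 or E1 S1S2 replicate 3, and to 1 lower without WT replicate 2, WT replicate 3, E1 S1S2 replicate 2 or E1 S1S2 replicate 3. E1 had 0 higher and 0 lower members, against 2.27% and 1.99% of all genes, and E2 had 0 and 0, against 2.9% and 3.21%. With edgeR, 3 members in E1 and 5 in E2 had an unadjusted p under 0.05, and DESeq2 called 0 in either. The share of all genes at that unadjusted cut is not given here, so these 2 counts have no background beside them. Without E2 replicate 2, Tlr2 was called in E2.

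The steps between related mutants ask which of the removals went with a change of each gene. From E1 to E1 S1S2 no member was called, where 8.06% of all genes were called in either direction, and DESeq2 called 0. In edgeR 7 members had an unadjusted p under 0.05, a cut for which the share of all genes is not given here. Tlr3 was higher by log2 0.92 (SE 0.16, adjusted p = 7.1e-05) and Tlr4 lower by 0.85 (log2 -0.85, SE 0.11, adjusted p = 1.8e-06), both under the fold required. Without E1 replicate 1, Tlr3 (log2 1.04) and Tlr5 (log2 -1.29, adjusted p = 0.00684) were called, and without E1 S1S2 replicate 1, Tlr1 was (log2 1.76, adjusted p = 0.00767). From E1 S1S2 to 6KO1, which adds the Eset2, G9a and Glp mutations, 5 members rose, against 21.3% of all genes called. They were Tlr2 (log2 1.83, SE 0.2), Tlr3 (2.23, SE 0.13), Tlr4 (2.15, SE 0.11), Tlr5 (2.96, SE 0.3) and Tlr6 (1.8, SE 0.29). The libraries of these 5 genes did not overlap between the 2 conditions, nor did those of Myd88, which was not called. The share of all genes without overlap is not given here. Adjusted p values of the 5 ran from 8.6e-14 for Tlr4 to 1.2e-05 for Tlr6.

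Within clone A4, 4-OHT changed no member by the call, where 2.97% of all genes were called between E1E2 and E2. By edgeR 3 members had an unadjusted p under 0.05, a cut for which the share of all genes is not given here, and DESeq2 called 0. Tlr3 came closest, at log2 0.97 (SE 0.15, adjusted p = 3.7e-05), and was called without E2 replicate 3 (1.22) or E1E2 replicate 3 (1.03). Tlr5 was lower in E1E2 by 0.92 on the log2 scale (log2 -0.92, SE 0.3, adjusted p = 0.032) and was called only without E1E2 replicate 2 (log2 -1.28, adjusted p = 0.00966). The 3 E1E2 libraries of Tlr3, at 214 to 248, all lay above those of E2, at 96.0 to 157. From E1E2 to E1E2 G9Gl, which adds the G9a and Glp mutations, 5 members rose and Tlr2 fell, against 21.6% of all genes called. Tlr5 rose 14.2-fold (log2 3.83, SE 0.24), Tlr6 8.59-fold (3.1, SE 0.36), Tlr3 4.3-fold (2.1, SE 0.13), Tlr4 3.88-fold (1.96, SE 0.11) and Tlr1 2.9-fold (1.54, SE 0.43). Tlr2 moved the other way, from 545 to 814 down to 204 to 222, a fall of 3.03-fold (log2 -1.6, SE 0.21, adjusted p = 6.2e-07). The rise of Tlr1 was not called by DESeq2 (adjusted p = 0.0213), nor by edgeR without E1E2 replicate 2 (adjusted p = 0.0221), E1E2 replicate 3 (adjusted p = 0.0202) or E1E2 G9Gl replicate 3 (adjusted p = 0.0195).

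From E1E2 G9Gl to 6KO2, which adds Suv39h1 and Suv39h2, the directions turned. Of all genes tested, 16.3% were called in either direction, and of the members 1 rose and 4 fell. Tlr2 rose 4.07-fold (log2 2.02, SE 0.21, adjusted p = 2.4e-08). Tlr3 fell 3.24-fold (log2 -1.7, SE 0.13, adjusted p = 7.9e-11), Tlr5 3.36-fold (log2 -1.75, SE 0.2, adjusted p = 7.9e-08), Tlr6 3.44-fold (log2 -1.78, SE 0.3, adjusted p = 2.6e-05) and Tlr1 2.99-fold (log2 -1.58, SE 0.44, adjusted p = 0.00389). For all 8 tested members, called or not, the 3 libraries of each condition were apart. The share of all genes with libraries apart is not given here. The fall of Tlr1 was not called by DESeq2 (adjusted p = 0.0222), nor by edgeR without E1E2 G9Gl replicate 1 (adjusted p = 0.0106), E1E2 G9Gl replicate 3 (adjusted p = 0.0199), 6KO2 replicate 2 (adjusted p = 0.0245) or 6KO2 replicate 3 (adjusted p = 0.013). Tlr4 was lower by log2 -0.79 (SE 0.1, adjusted p = 8.8e-07), under the fold required.

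**Figure D3:**
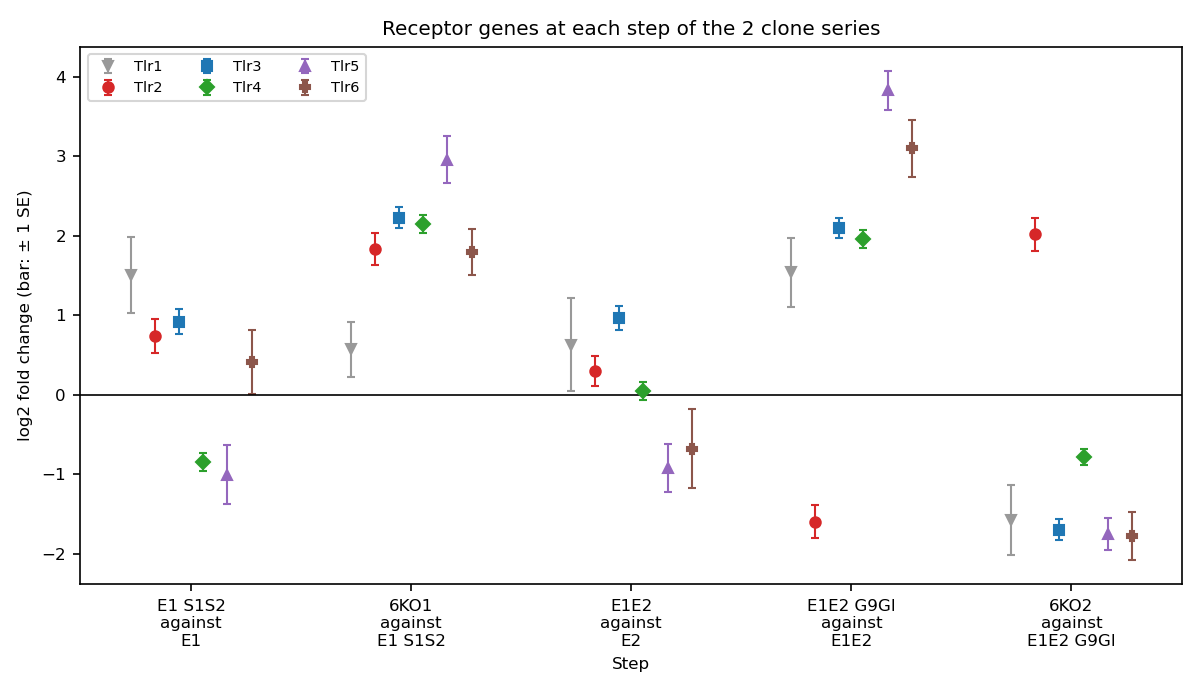
Log2 fold change (y axis, points) with 1 SE to either side (bars) of the 6 tested receptor genes at 5 steps between related conditions (x axis). Tlr2 (red circles) lies below 0 from E1E2 to E1E2 G9Gl, at -1.6, and above 0 from there to 6KO2, at 2.02, on the opposite side of 0 from the other 5 receptors at both steps.

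The 2 six-gene mutants have the same genes inactivated but come from different clones. Between them 16.9% of all genes were called, and 2 members were, Tlr1 at 2.79-fold (log2 1.48, SE 0.42, adjusted p = 0.00456) and Tlr6 at 2.93-fold (log2 1.55, SE 0.3, adjusted p = 0.00011), both higher in 6KO1. The call of Tlr1 was lost with DESeq2 (adjusted p = 0.0303), and in edgeR without 6KO1 replicate 1 (adjusted p = 0.0291), 6KO2 replicate 2 (adjusted p = 0.0304) or 6KO2 replicate 3 (adjusted p = 0.0155). Tlr3 was higher in 6KO1 by log2 0.94 (SE 0.13, adjusted p = 9.7e-07) and was called without 6KO2 replicate 3 (1.09). Tlr2 was higher by log2 0.45 (SE 0.19, adjusted p = 0.0404). Tlr5 stood at 70.0 ± 7.28 (SD, n = 3) in 6KO1 and 82.8 ± 4.8 in 6KO2, with a log2 difference of -0.24 (SE 0.21, adjusted p = 0.34).

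Among the members, Tlr4 and Tlr5 followed each other most closely over the 24 libraries, with a Pearson r of 0.9 of log2 CPM, followed by Tlr3 and Tlr4 at 0.81. Tlr2 stood apart from the other receptors, with r between 0.019 with Tlr6 and 0.34 with Tlr3. These r are descriptions over libraries that share conditions. Over all tested genes with a reported symbol, the patterns most like Tlr3 were those of Ifi203 (r = 0.982), a member of the interferon-inducible Ifi200 family, Olfr56 (0.972) and Gm28177 (0.968). Those most like Tlr2 were Arap2 (0.923), Cenpt (0.918) and the chemokine gene Ccl7 (0.915), and those most like Tlr4 were Abcg2 (0.979), Plcb4 (0.969) and Zfp983 (0.96). Trabd2b (0.951) and Slamf9 (0.943) were among the genes closest to Tlr5, and St3gal5 (0.931), Evc (0.921) and Arsb (0.913) came closest to Tlr6. For Tlr1, with few counts, the highest r were 0.876 with Pqlc3, 0.87 with Apol9b and 0.87 with Ogfod2. For Ticam1 they were 0.951 with Dop1b, 0.934 with Gsta1 and 0.931 with Cdk2ap2, and for Myd88 0.866 with Gm12263, 0.851 with Aplp2 and 0.849 with Prrg4.

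The genes that lie beside the members on the chromosomes were looked at for the same changes. Taking the 3 nearest tested genes on either side of each member gave 48 genes other than members. In 6KO1, 8 of these 48 were higher than WT and 4 lower, beside 20.6% and 10.2% of all genes tested. In E1E2 G9Gl 8 were higher and 1 lower, beside 16.8% and 8.41%, and in 6KO2 9 and 1, beside 15.3% and 5.39%. The differences from the share of all genes were not tested, and these counts were not run without WT replicate 2. Next to Tlr3, Cyp4v3 was higher in 6KO1 (log2 2.48) while Fam149a, between them, was not called (-0.35), on the other side Sorbs2 was higher (6.41), and next to Tlr2, Sfrp2 was lower (-2.27) and Tmem131l was not called (0.34).

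Downstream of the receptors, the genes of the pathway were taken from fixed lists that held 70 reported genes besides the members, of which 56 were tested. Among the 56, Nos2, Icam1 and Cxcl2 had 0 counts in WT and Il6 had 1 in each WT library. These genes passed the filter through mutants, so the counts of higher genes below are in part set by the filter. In 6KO1, 14 were higher and 3 lower than WT, against 20.6% and 10.2% of all genes tested. In 6KO2 the counts were 19 and 2 (15.3% and 5.39% of all genes), in E1E2 20 and 2 (5.51% and 3.22%), and in E1E2 G9Gl 5 and 3 (16.8% and 8.41%). With genes at 0 in WT taken at their lower bound, the median log2 fold change of the 56 was 0.38 for 6KO1, 0.35 for 6KO2, 0.32 for E1E2 and 0.17 for E1E2 G9Gl. E2 had 13 higher and 2 lower (2.9% and 3.21% of all genes), and 9 to 16 higher when 1 of its libraries was left out, 9 without replicate 1 and 16 without replicate 2. Its libraries were split for some of these genes as for Tlr2, with Nfkbia at 3280, 764 and 2341 normalized counts against 862 to 891 in WT. E1 S1S2 had 7 higher and 2 lower (6.65% and 5.11%), and E1 3 and 2 (2.27% and 1.99%). Without WT replicate 2 the higher pathway genes, over the same 56, were 13 in 6KO1, 11 in E2 and 2 in E1, and the counts in the other 4 mutants were as before. In that fit 3 of the other adaptors were tested in place of 2, and 1 was higher in E1E2 G9Gl in place of 0. E1E2 G9Gl, the condition with the highest Tlr3, Tlr4 and Tlr5, had the fewest higher pathway genes after E1.

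**Figure D4:**
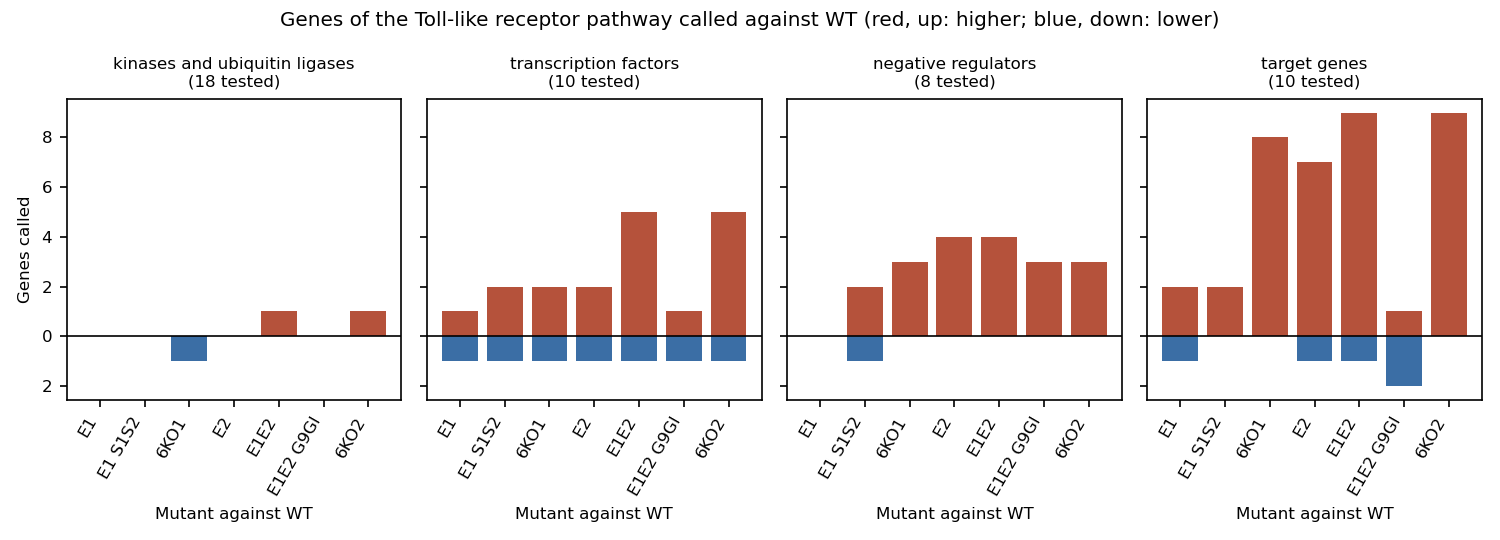
Number of genes (y axis) called higher (red, above 0) or lower (blue, below 0) than WT in each mutant (x axis) for 4 lists of pathway genes, with the number tested over each panel. Target genes were higher in 8 of 10 in 6KO1 and 9 of 10 in E1E2 and 6KO2, and in 1 of 10 in E1E2 G9Gl. Of all genes tested, 20.6% were higher in 6KO1, 5.51% in E1E2, 15.3% in 6KO2 and 16.8% in E1E2 G9Gl.

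Of 13 inflammatory target genes 10 were tested, of which 3 (Nos2, Icam1 and Cxcl2) had 0 counts in WT and passed the filter only through mutants, so the counts below are in part set by the filter. Of the 10, 8 were higher in 6KO1 and 0 lower (20.6% and 10.2% of all genes), and 9 and 0 in 6KO2 (15.3% and 5.39%). E1E2 had 9 and 1 (5.51% and 3.22%), E2 7 and 1 (2.9% and 3.21%) and E1 S1S2 2 and 0 (6.65% and 5.11%). E1 had 2 and 1 (2.27% and 1.99%) and E1E2 G9Gl 1 and 2 (16.8% and 8.41%). Without WT replicate 2, 7 were higher in 6KO1 and 5 in E2. In E2 the number higher was 5 without its replicate 1 or 3 and 8 without its replicate 2. The median log2 fold change, with genes at 0 in WT taken at their lower bound, was 2.55 in 6KO1, 3.98 in 6KO2, 4.02 in E1E2 and 0.09 in E1E2 G9Gl. The cytokine gene Il6, which also passed the filter through mutants, had 1, 1 and 1 raw counts in WT and 144, 129 and 147 in 6KO1. Nos2, Icam1 and Cxcl2, which encode inducible nitric oxide synthase, an adhesion molecule and a chemokine, had 0 counts in WT. Against the 3 counts over the group that this allows, Nos2 was at least 32.1-fold higher in 6KO1 and at least 135-fold higher in 6KO2, and Icam1 at least 19.5-fold and at least 358-fold higher. Cxcl2 was at least 5.19-fold higher in 6KO1 and at least 51.1-fold higher in 6KO2. In E1E2 the limits were 56.7-fold for Nos2, 302-fold for Icam1 and 42.3-fold for Cxcl2. These limits cover the counting error of WT only. They take the mutant counts as exact and leave out the spread between libraries, such as 353 ± 186 normalized counts (SD) for Icam1 in 6KO2.

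Of 10 transcription factors of the pathway, 2 were higher and 1 lower in 6KO1, close to the 20.6% and 10.2% of all genes. In both 6KO2 and E1E2 the counts were 5 and 1, beside 15.3% and 5.39% of all genes in 6KO2 and 5.51% and 3.22% in E1E2. Irf7, which drives type I interferon genes below Myd88, rose in each of the 7 mutants (in E1 not called without WT replicate 2, adjusted p = 0.0103), from 17.6 normalized counts in WT to 2357 ± 30.6 in 6KO1 (log2 7.06, adjusted p = 6.7e-15), 833 ± 9.74 in E1E2 G9Gl (log2 5.56, adjusted p = 9.5e-13) and 269 ± 89.4 in 6KO2 (log2 3.93, adjusted p = 3.4e-09). Irf5 rose in 6KO1 (log2 3.82, adjusted p = 2.7e-15) and 6KO2 (log2 2.22, adjusted p = 1.9e-10) and not in E1E2 G9Gl (log2 -0.6, adjusted p = 0.0227). It was also called higher in E1 S1S2 (log2 1.55), E2 (log2 1.3) and E1E2 (log2 2.42). Relb, a subunit of NF-κB, was called in 6KO2 (log2 1.12) and E1E2 (log2 1.36) and stood at 0.96 in 6KO1 and -0.74 in E1E2 G9Gl. Fos was lower in each of the 7 mutants, by 2.14 on the log2 scale in 6KO1 (log2 -2.14, adjusted p = 8.1e-09).

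None of the 18 kinases and ubiquitin ligases was higher in 6KO1 and 1, Ube2n, was lower (log2 -1.25, adjusted p = 8.4e-14), beside 20.6% and 10.2% of all genes. The kinase gene Ikbke was higher in 6KO2 (log2 1.25, adjusted p = 4e-06) and E1E2 (log2 1.42, adjusted p = 1.5e-06). Of 8 negative regulators, 3 were higher in each of 6KO1, E1E2 G9Gl and 6KO2, beside 20.6%, 16.8% and 15.3% of all genes. In each of E2 and E1E2 4 were higher (2.9% and 5.51% of all genes), in E1 S1S2 2 (6.65%) and in E1 0 (2.27%). In E1 S1S2, 1 regulator, Sigirr, was lower (log2 -1.84, adjusted p = 4.2e-06), where 5.11% of all genes were lower. Irak3, which restrains signalling below Myd88, rose in 6KO1, E1E2 G9Gl and 6KO2, in this order, by log2 2.69, 5.38 and 5.05, and Tnfaip3 (A20) by 1.75, 1.75 and 2.67. Both were also called higher in E1 S1S2 (log2 1.87 and 1.85), E2 (3.85 and 1.15) and E1E2 (3.85 and 1.87). Sigirr rose in 6KO1 (2.24), E1E2 G9Gl (1.8), E2 (1.7) and E1E2 (1.49) and stood at -0.44 in 6KO2 (adjusted p = 0.105). Nfkbia, the inhibitor of NF-κB, was called in 6KO2 (log2 1.95), E1E2 (log2 1.93) and E2 (log2 1.27, with libraries that overlap WT). It stood at 0.92 in 6KO1 and -0.95 in E1E2 G9Gl. Of the other adaptors, 2 of 4 were tested and Sarm1 was higher in 6KO1 (log2 2.87, adjusted p = 4.9e-11) and 6KO2 (log2 1.93, adjusted p = 3.1e-07). Sarm1 was also higher in E1 S1S2 (log2 2.04, adjusted p = 1.3e-07) and E1E2 (log2 1.52, adjusted p = 2.9e-05).

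Of 9 co-receptors and proteins that carry the receptors to their place 5 were tested, and none was called higher in any mutant. Of all genes, 2.27% (E1) to 20.6% (6KO1) were called higher. The chaperone gene Hsp90b1 was lower in 6KO1 (log2 -1.31, adjusted p = 1.8e-10), and Unc93b1, which takes Tlr3 and Tlr9 to endosomes, was lower in 6KO2 (log2 -1.41, adjusted p = 8.4e-08). Cd14, which hands lipopolysaccharide to Tlr4, held 59.6 ± 7.38 normalized counts (SD, n = 3) in WT and 30.0 ± 6.12 in E1E2 G9Gl, where Tlr4 was highest, and Ly96 (MD-2) held 69.1 ± 4.23 and 113 ± 18.9. None of 3 endolysosomal proteases tested was called in 6KO1, E1E2 G9Gl or 6KO2, where 20.6%, 16.8% and 15.3% of all genes were higher and 10.2%, 8.41% and 5.39% lower. Tlr8, Tlr11, Tlr12 and Tlr13 did not pass the filter, with at most 1, 0, 0 and 14 counts in a library.

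Markers of white blood cells, which carry many of these receptors, were in sum higher than in WT in 6KO1, E1E2 G9Gl, 6KO2 and E1E2, though not each marker was. The summed level of 12 leukocyte and macrophage markers was 120 to 152 normalized counts in WT, 842 to 950.5 in 6KO1, 828 to 871 in E1E2 G9Gl, 215 to 289 in 6KO2, 186 to 220.2 in E1E2 and 81.6 to 175 in the other 3 mutants. Of 7 tested, 5 were higher in 6KO1, 4 were higher and 1 lower in E1E2 G9Gl, and 4 were higher in 6KO2, beside the 20.6%, 16.8% and 15.3% of all genes called higher. These counts are in part set by the filter, since 4 of the 7 (Ptprc, Itgam, Lyz2 and Cd3e) had 0 counts in WT. Ptprc (CD45) had 0 counts in WT and 15.7 ± 0.943, 47.7 ± 2.62 and 18.7 ± 8.68 normalized counts (SD, n = 3) in these mutants, and Itgam (CD11b) had 0 in WT and 62.1 ± 4.15, 508 ± 11 and 21.3 ± 5.61. Cd68 stood at 98.5 ± 8.62 in WT and at 492 ± 31.7, 86.1 ± 14.5 and 90.6 ± 12.9, Cd74 at 20.9 ± 9.76 and at 299 ± 16.4, 5.79 ± 1.55 and 83.6 ± 15.9, and Csf1r at 3.64 ± 0.626 and at 6.26 ± 2.4, 0 and 7.25 ± 2.68. Cd68 and Cd74 made up most of the sum in 6KO1, and Itgam and Lyz2 (152 ± 11.2) most of that in E1E2 G9Gl. Adgre1 had 0 counts in all 24 libraries, and Tyrobp and Laptm5 had counts in 1 library each, of 1 and 2. In bulk RNA, more cells of a type and more RNA per cell cannot be told apart, and the part of these markers in the levels of the receptors was not tested. The summed level of 5 endothelial markers was 13.0 to 15.5 in WT, 187 to 227 in 6KO1, 72.5 to 94.8 in E1E2 G9Gl, 118 to 165 in 6KO2, 27.3 to 35.5 in E1, 43.2 to 53.2 in E1 S1S2, 22.7 to 33.2 in E1E2 and 8.97 to 14.3 in E2. That of 5 epithelial markers was 188 to 234 in WT, 1301 to 1401 in 6KO1, 2703 to 2796 in E1E2 G9Gl and 2262 to 2609 in 6KO2. It was 451.1 to 556.6 in E1, 794.3 to 848.6 in E1 S1S2, 1189 to 1478 in E2 and 1445 to 1620 in E1E2. Of the 5 epithelial markers 3 were tested, and not each rose. In each of the 7 mutants 2 were higher, beside 2.27% (E1) to 20.6% (6KO1) of all genes. In 6KO1, E1E2 G9Gl, 6KO2, E1 S1S2 and E2, 1 was lower, beside 3.21% (E2) to 10.2% (6KO1) of all genes. Members called numbered 7 in 6KO1, 6 in E1E2 G9Gl, 4 in E1 S1S2, 3 in 6KO2, 1 in E1E2 and 0 in E1 and E2. Shares of all genes called higher were smallest with E1 (2.27%) and E2 (2.9%), then E1E2 (5.51%) and E1 S1S2 (6.65%). They were largest with 6KO2 (15.3%), E1E2 G9Gl (16.8%) and 6KO1 (20.6%). The shares called lower are given below. Whether the member calls go with these markers was not tested. The summed level of 9 fibroblast markers was 171160 to 215076 in WT, 96914 to 108758 in 6KO1 (0 called higher and 4 lower), 224034 to 241796 in E1E2 G9Gl (3 higher and 1 lower) and 141898 to 145559 in 6KO2 (0 higher and 2 lower). It was 146357 to 161696 in E1 S1S2 (0 and 4), 141355 to 150221 in E1E2 (0 and 2), 155001 to 170330 in E1 (0 and 1) and 159201 to 181225 in E2 (0 and 2). Of all genes, 10.2% were lower in 6KO1, 8.41% in E1E2 G9Gl, 5.39% in 6KO2, 5.11% in E1 S1S2, 3.22% in E1E2, 1.99% in E1 and 3.21% in E2.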

How the data were processed

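Total RNA of MEFs was sequenced as 24 paired-end libraries. The authors trimmed reads (cutadapt 1.8.1), mapped them (STAR 2.5.2b) to GRCm38 and counted genes and repeats together (TEtranscripts), per the study's methods and the submitters' processing notes. The deposited table holds raw counts of 47937 genes and 1445 repeat elements, and 1 malformed entry (0.002% of counts) was left out. Normalization and tests used genes only, in edgeR 4.0.16 (R 4.3.3): filterByExpr by condition, TMM factors, a quasi-likelihood fit of all 24 libraries with 1 coefficient per condition and Benjamini-Hochberg adjustment over 18565 genes, for 13 comparisons, of which 7 were against WT. A call needed a fold of 2 and an adjusted p of 0.01. Symbols, exon lengths and positions came from GENCODE, promoters from RefSeq. Tested on simulated counts of 18565 genes for 6KO1 against WT, edgeR recovered 176 of 200 changed genes and called 0 others. The simulation gave every gene the same dispersion, changed genes in 6KO1 only and by more than the fold required, and held no outlying library. Its result is therefore a check of the code and no error rate for these data. DESeq2 1.42.0, RLE factors, no filter, 6 libraries alone, the replicate block, no fold minimum and each library left out were the alternatives. The total of each library was 24736829 to 37419071 counts. The members and gene lists were chosen with earlier results of these data known. Named pathway genes are up to 4 per list with the largest change in 6KO1 among those called in a six-gene mutant, and like patterns are the 3 genes with the highest r. Cd14, Ly96 and the named neighbours were chosen after their values were seen. Results of 1 further receptor gene and of 1 gene with a like pattern are not reported here.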

Additional observations from a re-analysis of the deposited data

Results flagged for a closer look

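The same genes were removed in 2 backgrounds, which allowed a test of whether a change differed between them (an interaction contrast in the edgeR fit, adjusted over all genes, chosen after the data were seen). For Eset1 deletion by 4-OHT, 2 of 8 members differed between clone A4 and the WT line at an adjusted p of 0.01, beside 8.89% of all genes tested. The total count of Setdb1 (Eset1) itself stood at log2 -0.57 from WT to E1 and 0.01 from E2 to E1E2 (adjusted p = 0.992), so it does not show the deletion in clone A4. This count takes in all exons and not only the deleted pair, and the study reports a check of the Eset1 deletion by western blot. Tlr3 differed by log2 1.19 (SE 0.23, adjusted p = 0.00075), with 0.97 from E2 to E1E2 and -0.22 from WT to E1. Ticam1 differed by -0.55 (SE 0.14, adjusted p = 0.00996), with means of 317 and 320 normalized counts in E2 and E1E2 against 193 and 285 in WT and E1. This difference missed the threshold of 0.01 with the replicate block (adjusted p = 0.0106) and in 9 of 12 fits that left out 1 library (adjusted p of 0.0143 to 0.0355), and passed it only without WT replicate 3, E2 replicate 1 or E1E2 replicate 1.

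For the Suv39h1 and Suv39h2 mutations, 5 of 8 members differed between the step from E1E2 G9Gl to 6KO2 and the step from E1 to E1 S1S2, beside 39.2% of all genes tested. Tlr2 differed by 1.28 (SE 0.3, adjusted p = 0.00103), with a larger rise in the former, 2.02 against 0.74. Tlr3 differed by -2.61 (SE 0.2, adjusted p = 3.3e-10), with -1.7 against 0.92. Tlr1 differed by -3.09 (SE 0.65, adjusted p = 0.00037), Tlr6 by -2.2 (SE 0.51, adjusted p = 0.00092, and 0.0112 without E1 S1S2 replicate 1) and Ticam1 by -0.84 (SE 0.14, adjusted p = 2.2e-05). The backgrounds are different clones, and clone and background cannot be told apart.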

How the results depend on the processing

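Without a minimum fold change, the members higher than WT numbered 1 in E1, 2 in E2, 4 in E1E2 and 6 in 6KO2, the members lower 1 in E2 and 1 in E1E2, and those called at a step 4 from E1 to E1 S1S2, 2 from E2 to E1E2 and 4 between 6KO1 and 6KO2. On the same setting the pathway genes higher and lower than WT numbered 5 and 4 in E1, 22 and 8 in E1 S1S2, 33 and 11 in 6KO1, 33 and 8 in 6KO2, 22 and 5 in E2 and 16 and 14 in E1E2 G9Gl, with 9 lower in E1E2. The shares of all genes given above need the fold of 2, so the counts without it have no background beside them. With the 6 libraries alone, E1 S1S2 had 1 member higher and 1 lower and E1E2 had 2 higher, and E1E2 G9Gl had 5, as Tlr1 was not tested there. With no filter on low counts, 8 members were higher in 6KO1, among them Tlr9, which had 0 counts in WT and could only be called higher. With DESeq2, 1 member was called between 6KO1 and 6KO2. Leaving out 1 library at a time, the members higher were 5 to 7 in 6KO1, 1 to 2 in E1 S1S2, 0 to 1 in E2 and 1 to 2 in E1E2, the members lower in E1 S1S2 were 1 to 2, and those called were 0 to 2 from E1 to E1 S1S2, 0 to 1 from E2 to E1E2 and 1 to 2 between 6KO1 and 6KO2. Of the 56 fold changes of members against WT, 5 turned their direction under an alternative, none of them called: Tlr4 in E1 (log2 -0.33 to 0.01), Tlr2 and Myd88 in E1 S1S2 (-0.04 to 0.11 and -0.03 to 0.05), Tlr5 in E1E2 (-0.56 to 0.1) and Tlr6 in 6KO2 (-0.37 to 0.16). Libraries with the same replicate number did not deviate together (r of -0.291 to 0.24), so they are not pairs, and with the replicate block 7 members were higher in 6KO1, 3 in 6KO2 and 6 in E1E2 G9Gl. Tlr1, Tlr6 and Tlr9 had at most 38 counts in a library, which limits what their levels can show.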
